A study of Mus musculus with 2 samples.

Results

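The cytosolic ribosomal protein genes of mouse lung epithelial cells were read in 2 RNA sequencing libraries, 1 from tumour-bearing and 1 from control mice. They were chosen by gene symbol alone: Rpl or Rps followed by a number, with an a, x or l allowed at the end, together with Rplp0, Rplp1, Rplp2 and Rpsa. This gave 77 of 15113 genes, 46 of the large and 31 of the small ribosomal subunit, and all 77 had a value in both libraries. The rule itself uses no measured value, but it was set with earlier results of these data known. The symbol rule left out Rps3a1, a core small-subunit gene, and a few others that are given further on.

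Both groups were C57BL/6 mice aged 6 to 8 weeks with no allele or transgene named. In the tumour group, 1000000 cells of the mouse Lewis lung carcinoma line LLC, labelled with luciferase, had been injected subcutaneously into the dorsum, a setting that the labels describe as a spontaneous lung metastatic model. The controls were wild-type mice without a tumour. The libraries are called the control and the tumour library here. Not given in the sources used here were the time between injection and sampling, the number of mice per library and any pooling of mice. Lung was dissociated and cells lacking CD45, the leukocyte surface protein, and carrying Sftpc, the surfactant protein C made by alveolar type 2 (AT2) cells, were taken by sorting before RNA was isolated.

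A cytosolic ribosome holds 1 copy of nearly every ribosomal protein, bound to the ribosomal RNAs of a small subunit that reads the mRNA and a large subunit that joins amino acids. The mRNAs of these proteins are among the most abundant of any cell, and in vertebrates they open with a terminal oligopyrimidine (TOP) tract, a C followed by a run of C and T, through which the kinase complex mTORC1 and the protein Larp1 control their translation. That control acts mostly on the use of the mRNA and less on its amount, so an mRNA table measures only part of it. In the lung, AT2 cells spend much of their translation on surfactant proteins.

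A run of C and T is visible at the annotated start sites of many of these genes, and the sequences below show starts with and without it. Each is 30 bases of the coding strand, from 10 bases before to 20 bases from the annotated start, taken from RefSeq on GRCm38.p6, the assembly that mm10 denotes. Capitals mark a run of C and T of at least 5 bases that opens with C and begins within 5 bases of the start. The first 3 hold the longest runs found among the members, and the next 3 belong to a stalk gene that was lower and to small-subunit genes that were higher in the tumour library. The last 3, of genes at the 2 ends of the ratios described below, have no such run at the annotated start, which does not show that their mRNAs lack a TOP tract.
Rpl27a (chr7:109519185-109519214, plus strand): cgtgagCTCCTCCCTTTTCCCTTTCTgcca
Rpl15 (chr14:18270967-18270996, minus strand): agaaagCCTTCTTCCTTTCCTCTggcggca
Rpl35 (chr2:39005112-39005141, minus strand): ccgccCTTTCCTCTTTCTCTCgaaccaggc
Rplp2 (chr7:141447641-141447670, plus strand): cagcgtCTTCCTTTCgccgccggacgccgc
Rps27 (chr3:90213629-90213658, minus strand): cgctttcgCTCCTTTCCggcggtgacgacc
Rps15a (chr7:118116128-118116157, minus strand): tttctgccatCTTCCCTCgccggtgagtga
Rps28 (chr17:33824543-33824572, minus strand): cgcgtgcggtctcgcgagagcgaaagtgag
Rpl37 (chr15:5116603-5116632, plus strand): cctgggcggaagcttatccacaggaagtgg
Rpl10 (chrX:74270806-74270835, plus strand): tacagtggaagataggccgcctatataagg

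Promoter entries were at hand for 57 of the 77 members. A run of at least 5 bases stood at the start of 28 of them (49.1%), against 23.9% of 9791 tested genes with an entry. A run of at least 8 bases stood at 20 of the 57 (35.1%), against 5.86%. Further motifs were searched on both strands of the 300-base window that ends 50 bases into the gene. CCGGAAG, a core of ETS-family factors, was found in 24 of the 57 members (42.1%) and 20.1% of tested genes. GCCATNTT, a core of the factor YY1, was found in 11 members (19.3%) and 9.90% of tested genes. GGGCGG, the core of SP1 sites, was found in 61.4% of members and 69.2% of tested genes. The TATA box TATAAA was found in 10.5% and 8.83%, and the E box CACGTG, the site of Myc, in 10.5% and 11.7%. A match is a run of letters and not a shown binding site, and the lack of one says only that the letters are not in this window. The median log2 ratio of the libraries was 0.15 for the 28 members with a run at the start and 0.11 for the 29 without one.

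The authors deposited RPKM, the reads of a gene divided by its length and by the total reads of the library. The totals recovered from these values were 5335352 reads for the control and 5387114 for the tumour library. With 1 library per group, the spread between replicates is unknown and no p-value can be had. A fold is the direct ratio of RPKM, and the interval beside it is an exact (Clopper-Pearson) conditional 95% interval from the read numbers. The interval covers counting error at most. PCR reads without molecular identifiers are not independent molecules, so it can be too narrow even for that.

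The sort gate could be checked in both libraries. Sftpc was at 94902.5 RPKM in the control library and at 54968.1 RPKM in the tumour library, 18.6% and 11.2% of all RPKM, and Ptprc, which encodes CD45, had 12 and 2 reads. Summed RPKM of marker lists, control then tumour, was 128666 and 89403 for 12 AT2 genes, 1725 and 2813 for 8 AT1 genes and 32005 and 36244 for 4 club cell genes. Nearly all of the last sum was Scgb1a1. Of the 4 club cell genes, 2 were higher, Scgb1a1 and Scgb3a1 (80.5 and 295 RPKM). The other 2 were lower, Cyp2f2 (1203 and 491 RPKM) and Scgb3a2 (579 and 341 RPKM). Most of the AT2 sum was Sftpc. Of the 12 AT2 genes, 8 were lower and 4 higher in the tumour library, with Sftpd at 3633 and 7410 RPKM. All 8 AT1 genes were higher, 5 of them at least 2-fold (all tested genes: 9.38%). Summed RPKM was 274 and 221 for 4 ciliated cell genes, 25.03 and 422 for 6 fibroblast genes and 21.9 and 112 for 7 endothelial genes. All 6 fibroblast genes and 6 of the 7 endothelial genes were at least 2-fold higher in the tumour library (all tested genes: 9.38%). Summed values were 12 and 40 for the macrophage list, where Mrc1 and Marco were not listed. Most of that sum was Cd68 (7.81 and 31.5 RPKM). Of the macrophage genes, 3 were higher and 1 lower, Chil3 with 19 and 0 reads. The sums were 2.58 and 1.34 for the pan-leukocyte list, where Cd52 was not listed. They were 16.2 and 25.5 for the erythroid and 75.5 and 68.8 for the cell cycle list. Of 3 tested erythroid genes, 2 were higher and Hba-a2 was lower (16 and 7 reads). The part of these other cells in the values below was not tested, and fewer cells of a type and less RNA per cell cannot be told apart in bulk RNA.

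Ribosomal protein genes were among the most abundant genes of both libraries and held nearly the same level in each. Their RPKM summed to 30984.3 in the control and 32967.7 in the tumour library. This was 6.06% and 6.72% of all RPKM, and 7.44% and 7.57% once Sftpc was left out of the total. In reads they took 133963 (2.51% of the total) and 142016 (2.64%). The median member was at 361 RPKM in the control library and at 402 RPKM in the tumour library, and 62 and 63 of the 77 were at 200 RPKM or more.

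**Figure D1:**
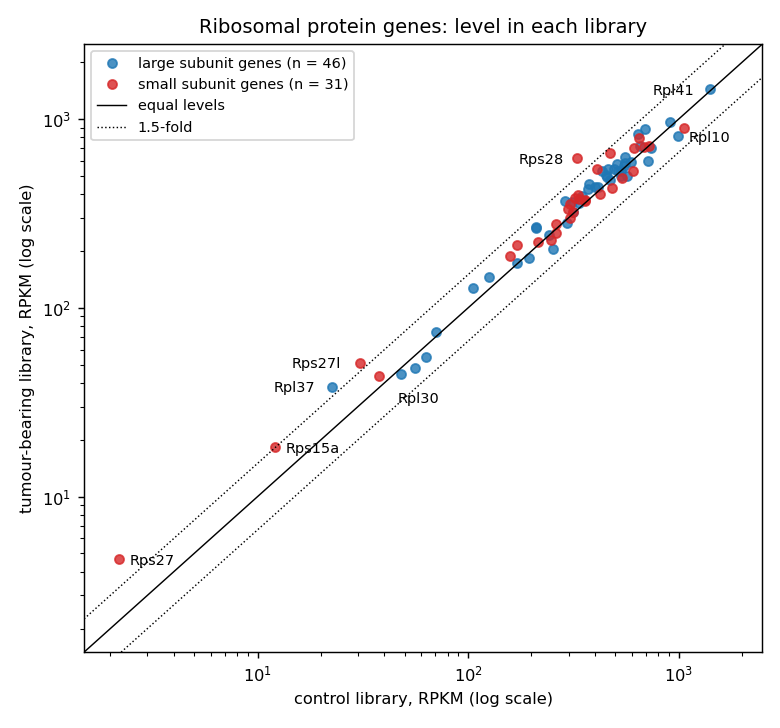
RPKM of each of the 77 ribosomal protein genes in the control library (x, log scale) and the tumour library (y, log scale), 1 point per gene, with 46 large-subunit genes in blue and 31 small-subunit genes in red; the solid line marks equal levels and the dotted lines 1.5-fold. Most genes lie along the solid line at 200 RPKM or more, Rps28 stands above it, and Rps27, Rps15a and Rpl37 are the 3 lowest in both libraries.

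The order of the members was much the same in both libraries. Rpl41, a very short protein at the interface of the subunits, was the highest in each, at 1415 RPKM in the control library and at 1438 RPKM in the tumour library, a fold of 1.02 (0.969 to 1.07). Rps15, a protein of the small-subunit head near the decoding site, and Rpl10, which helps shape the site where peptide bonds form, came next in the control, at 1060 and 994 RPKM. In the tumour library Rpl23a, at the exit of the peptide tunnel, came second at 961 RPKM. Across the 77 genes the log2 RPKM of the libraries had a Pearson correlation of 0.987 and a Spearman correlation of 0.963, a description over genes that share the same 2 libraries.

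The members under 100 RPKM were few. Rps27, a zinc-finger protein of the small subunit, was the lowest, at 2.19 and 4.65 RPKM (7 and 15 reads). Above it in the control library came Rps15a at 12.1, Rpl37 at 22.5, Rps27l at 30.7, Rps23 at 37.7, Rpl30 at 48.2, Rpl22 at 56.2, Rpl34 at 63.2 and Rpl31 at 70.2 RPKM. These 9 genes were the lowest 9 in the tumour library too.

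The sequence that members share with other genes bears on how their reads could be assigned. Ribosomal protein genes have many processed pseudogenes, copies of the mRNA elsewhere in the genome, and a read from a shared stretch has more than 1 possible source. Of all 50-base stretches of the principal GENCODE M21 transcript, the median member shared 61.2% with transcripts of other genes, and 51 of the 77 shared over 50%. Rps27 shared 98.6% of its stretches with 9 other genes, 8 of them pseudogenes. Rpl10 shared 92.1% and had 4230 and 3481 reads. Across members the shared percentage had a Spearman correlation of 0.19 with control RPKM and of -0.13 with the log2 ratio. Whether read length or the handling of reads with several matches, neither given in the sources used here, has a part in the low value of Rps27 was not tested.

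**Figure D2:**
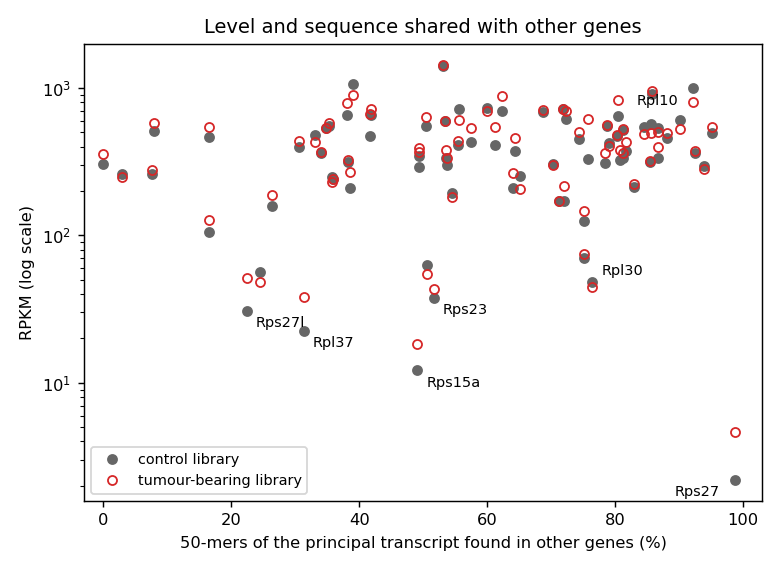
Percentage of 50-base stretches of each member's principal transcript that also occur in transcripts of other genes (x) and its RPKM (y, log scale) in the control library (filled) and the tumour library (open), 77 genes in each. Members at 200 RPKM or more occur along nearly the whole x axis, and Rps27 stands alone at 98.6% and the lowest level.

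The gene length used for RPKM also varied in how near it was to the transcript. Rps15a, a protein of the small-subunit body, had 334 and 506 reads. The length implied by its RPKM was 5158 bases, 8.06 times the 640 bases of its principal transcript. Counted per kilobase of that transcript it had 522 control and 791 tumour reads, against 64.8 and 98.1 per kilobase of the length used. The length used was at least 1.5 times the transcript for 8 members, among them Rpl22 (4.97 times) and Rpl31 (2.59 times). They also included Rpl21 (2.08 times) and Rps24 (1.87 times), at 718 and 683 RPKM in the control library. Of the members under 100 RPKM, Rpl37 (1.04 times) and Rpl30 (1.05 times) had a length near the transcript. The part of the length used in the low RPKM of members was not tested. Per kilobase of the principal transcript, Rpl22 had 1492 reads in the control and Rpl31 had 969. Of the 77 lengths, 42 were within 20 bases of a GENCODE transcript. Length cancels in the ratio of the libraries, so it bears on the order of levels and not on the folds.

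The libraries were compared as log2((tumour-bearing RPKM + 1)/(control RPKM + 1)). The comparison sets sorted lung cells of mice injected with LLC cells, a model labelled as lung metastatic, beside those of control mice. The median of the 77 members was 0.085, with a middle range of 0.00 to 0.24, beside 0.057 for all 12288 tested genes. Of the members, 58 were above 0 (all tested genes: 53.8%), but the direction of the median rests on the scaling: it was -0.0027 when both libraries were scaled to their upper quartile, where 38 members were above 0. The upper-quartile factor was 1.06, and 20 members changed sign under it. Group medians of 0.085 or less given below lie within that factor, so their direction rests on the scaling too. With upper-quartile scaling 48.3% of all tested genes were above 0. At least 1.5-fold higher were 4 members (all tested genes: 19.4%), and 0 members were at least 1.5-fold lower (all tested genes: 16.1%). The other 73 members were within 1.5-fold. On this scale, with 1 RPKM added, at least 2-fold higher or lower were 0 members (all tested genes: 9.38% and 6.53%), although the direct ratio of Rps27 was 2.12. A rule of 25% gave 13 members higher (all tested genes: 31.7%) and 0 lower (all tested genes: 26.6%).

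The spread of the members was narrow beside that of other abundant genes. The SD of log2 ratios was 0.24 over the members and 0.78 over all tested genes. Of the 68 members at 100 RPKM or more in both libraries, 67 were within 1.5-fold, with an SD of 0.20. The SD was 0.61 over the 377 other genes at 100 RPKM or more in both libraries, of which 15.1% were at least 1.5-fold higher and 12.7% lower. It was 0.88 over the 492 other genes with a mean of 100 RPKM or more over the libraries, with 20.9% higher and 15.4% lower. It was 0.94 over the 581 other genes at that level in either library, with 22.7% higher and 16.7% lower, a class that takes in genes abundant only where they are high. Of the 9 members under 100 RPKM, 6 were within 1.5-fold.

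**Figure D3:**
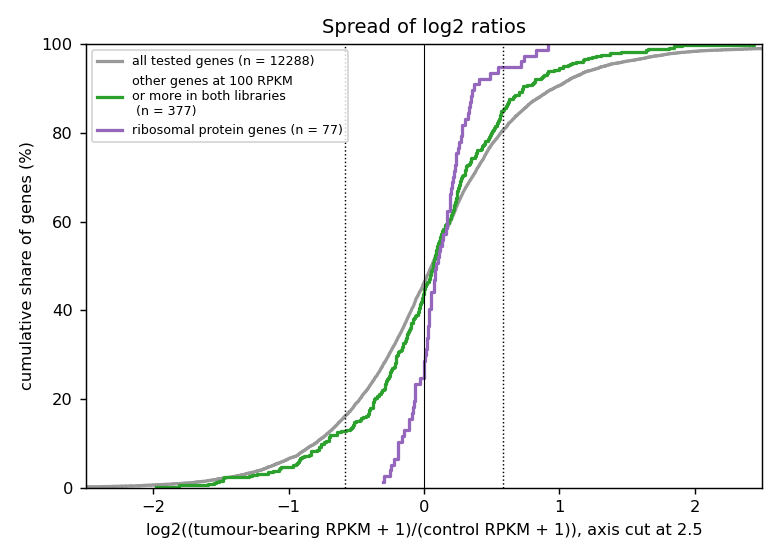
Cumulative share of genes (y, %) by log2((tumour-bearing RPKM + 1)/(control RPKM + 1)) (x, axis cut at 2.5 on either side) for 12288 tested genes, 377 other genes at 100 RPKM or more in both libraries and the 77 ribosomal protein genes; dotted lines mark 1.5-fold. The line of the ribosomal protein genes rises steeply between -0.30 and 0.92, and both other lines rise over a wider range.

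The counting intervals were narrow, since many members had over 1000 reads, and could exclude a fold of 1 at small differences. The interval of the fold lay wholly above 1 for 36 members, wholly below 1 for 10 and across 1 for 31. This balance rests on the scaling by total reads: with the upper-quartile factor it was 25 above, 19 below and 33 across. Over 12178 tested genes with read numbers, 33.1% lay above 1 and 26.4% below with total-read scaling. The log2 ratio had a Spearman correlation of -0.26 with control RPKM and of -0.10 with gene length across the members.

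**Figure D4:**
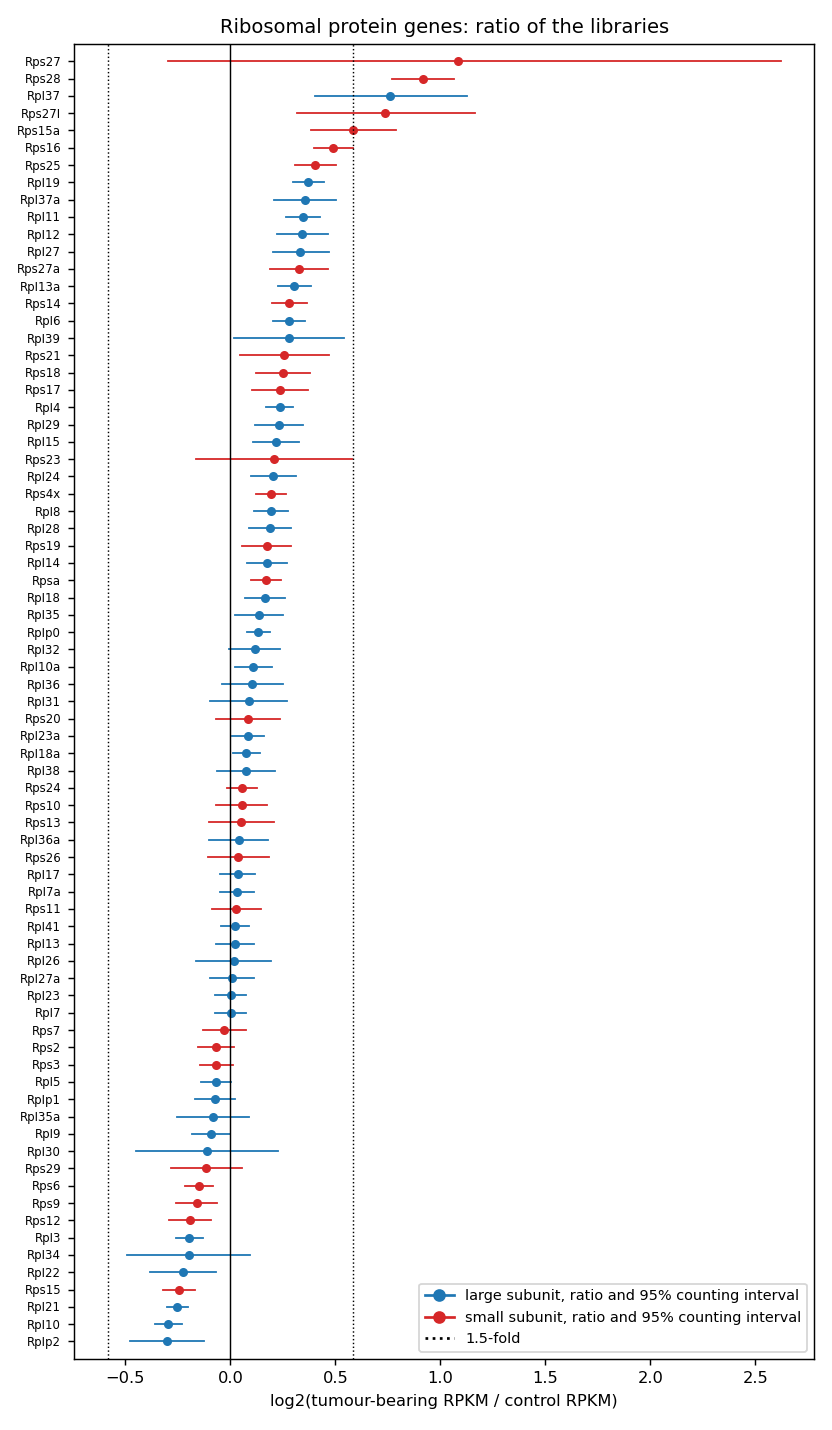
log2(tumour-bearing RPKM / control RPKM) of 75 ribosomal protein genes (x), ordered by value, with 46 large-subunit genes in blue and 29 small-subunit genes in red; bars are exact 95% intervals from read numbers in 1 library per group and cover counting error only, and dotted lines mark 1.5-fold. The genes run from Rplp2 at the bottom to Rps27, whose 7 and 15 reads give the widest bar.

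Rps28 stood out among the abundant members. It encodes a small protein of the small-subunit head, next to the path by which mRNA leaves the ribosome. It was at 327 RPKM (573 reads) in the control library and at 619 RPKM (1093 reads) in the tumour library, a fold of 1.89 (1.71 to 2.09), and it moved from rank 45 to rank 15 of the 77. Rps28 lies on the minus strand of chromosome 17, 33823036 to 33824562 on GRCm38. Its start is 10 bases from that of Ndufa7, a gene of mitochondrial complex I that runs the other way, and the 30 bases printed for Rps28 above reach the first base of Ndufa7 in GENCODE M21. Ndufa7, looked at after its position and value were seen, was at 70.4 RPKM (181 reads) and 137 RPKM (356 reads), a fold of 1.95 (1.62 to 2.34).

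Head-to-head pairs as a whole showed no single direction. In 7 pairs a member and a tested gene of the opposite strand had starts within 1000 bases of each other or overlapped by at most 100. The partner was at least 1.5-fold higher in 2 pairs and at least 1.5-fold lower in 1 (all tested genes: 19.4% and 16.1%). Member and partner had the same sign in 2 of the 7, a count that rests on the scaling. With upper-quartile scaling Rpl7a was at -0.056 and Rps24 at -0.035, below 0 like their partners. The gene Kank3 overlaps Rps28 in exons on the opposite strand, and its level was 12.9 and 13.3 RPKM, a fold of 1.03 (0.839 to 1.28). The counting may or may not have used strand (not given in the sources used here), so reads of Rps28 and Kank3 in the shared stretch cannot be told apart. The principal transcript of Rps28 shared 75.7% of its 50-base stretches with 8 pseudogenes, and it shared none with Kank3 on either strand.

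The other 3 members past 1.5-fold were all under 100 RPKM. Rpl37, a zinc-binding protein of the large subunit, was at 22.5 RPKM (104 reads) and 38.1 RPKM (178 reads), a fold of 1.70 (1.32 to 2.18). Rps27l, a close copy of Rps27 known as a target of the tumour suppressor p53, was at 30.7 RPKM (76 reads) and 51.2 RPKM (128 reads), a fold of 1.67 (1.2 to 2.25). Rps27 itself was at 2.19 and 4.65 RPKM, a fold of 2.12, but 7 and 15 reads gave an interval of 0.815 to 6.15 that spans 1. The listed level of Rps27l was 14 times that of Rps27 in the control and 11 times in the tumour library, beside the shared sequence of Rps27 given above. Rps15a fell just short of the rule, at 12.1 and 18.2 RPKM and a log2 ratio of 0.55, with a fold of 1.5 (1.30 to 1.73).

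The 2 subunits overlapped in their ratios. The median log2 ratio was 0.083 over 46 large-subunit genes, of which 35 were above 0, and 0.17 over 31 small-subunit genes, of which 23 were above 0. Past 1.5-fold were 1 large-subunit and 3 small-subunit genes. With upper-quartile scaling the large-subunit median was -0.0050, with 22 above 0, and the small-subunit median 0.080, with 16 above 0.

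Within the large subunit, the 4 genes of the P stalk, which recruits the elongation factors, were all within 1.5-fold. Its anchor Rplp0 was at 654 and 718 RPKM, a fold of 1.10 (1.05 to 1.14), and Rpl12 at its base was at 289 and 366 RPKM, a fold of 1.27 (1.17 to 1.38). Of the tip proteins, Rplp1 was at 736 and 699 RPKM, a fold of 0.95 (0.890 to 1.02) whose interval spans 1, and Rplp2 at 252 and 205 RPKM, 1.23-fold lower (1.09 to 1.39). Rplp2 was the member with the lowest ratio.

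Rpl5 and Rpl11 travel together with an rRNA as a small particle that, when free, binds the p53 regulator Mdm2. Rpl5 was at 295 and 281 RPKM, a fold of 0.953 (0.906 to 1.001) whose interval spans 1. Rpl11 was at 695 and 884 RPKM, a fold of 1.27 (1.20 to 1.35). The 2 ratios had opposite signs, but the Rpl5 interval does not exclude a fold of 1. The 2 counting intervals did not overlap. Rpl5 shared 93.8% of its 50-base stretches with 16 other genes.

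Of 9 proteins that line the peptide exit tunnel or its opening, 8 were above 0 (4 with upper-quartile scaling), with a median of 0.085 that equals the median of all members. Rpl19 was the highest of them, at 643 and 832 RPKM, a fold of 1.29 (1.23 to 1.36). Rpl39, a very small tunnel protein, was at 106 and 128 RPKM, a fold of 1.21 (1.01 to 1.46). Rpl22 was the 1 below 0, at 56.2 and 48.1 RPKM, 1.17-fold lower (1.05 to 1.30).

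Around the catalytic core and the exit site the median was 0.03 over 6 genes. Rpl10 was at 994 and 810 RPKM, 1.23-fold lower (1.17 to 1.28), and Rpl3, which reaches into the catalytic centre, was at 569 and 497 RPKM, 1.15-fold lower (1.10 to 1.20). Rpl8, a core protein of the same region, was at 509 and 581 RPKM, a fold of 1.14 (1.08 to 1.21). The 25 other large-subunit genes had a median of 0.10, with 20 above 0 (13 with upper-quartile scaling). Rpl21 was the lowest of these, at 718 and 602 RPKM.

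Within the small subunit, 14 proteins of the head had a median of 0.20, with 10 above 0 (8 with upper-quartile scaling) and Rps28 past 1.5-fold. Next to Rps28 came Rps16, whose tail touches the tRNA at the decoding site, at 472 and 662 RPKM, a fold of 1.40 (1.32 to 1.5). Rps25, needed for initiation at some viral internal entry sites, was at 411 and 544 RPKM, a fold of 1.32 (1.24 to 1.42). Rps15 was lower in the tumour library, at 1060 and 895 RPKM, 1.18-fold lower (1.12 to 1.2). Rps12 was at 605 and 530 RPKM, 1.14-fold lower (1.07 to 1.22).

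The 16 proteins of the body and platform had a median of 0.05, with 12 above 0 (7 with upper-quartile scaling). Rps6, the substrate of the S6 kinases downstream of mTORC1, was at 540 and 487 RPKM, 1.11-fold lower (1.06 to 1.16). Rps14, a platform protein, was at 651 and 791 RPKM, a fold of 1.21 (1.15 to 1.29). Rps3a1, outside the symbol rule and looked at after its value was seen, was at 660 and 571 RPKM, a fold of 0.865 (0.823 to 0.909).

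**Figure D5:**
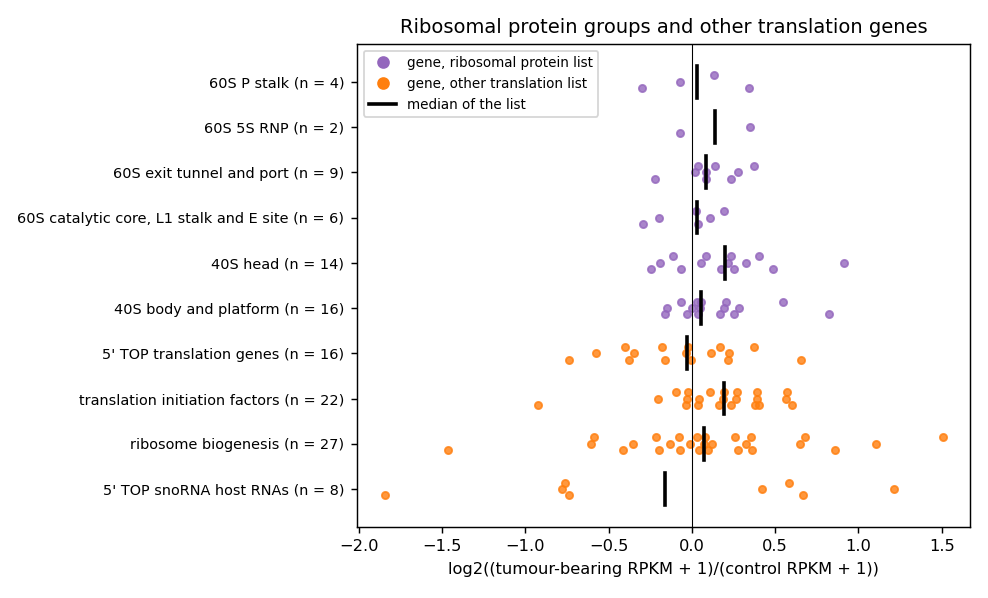
log2((tumour-bearing RPKM + 1)/(control RPKM + 1)) of each tested gene (x) in groups of ribosomal protein genes (purple) and lists of other translation genes (orange), with the median of each list as a black bar and the number of genes beside its name. The purple points lie between -0.30 and 0.92, and the snoRNA host RNAs and ribosome biogenesis genes reach from -1.84 to 1.5.

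In people, loss of 1 copy of certain ribosomal protein genes causes Diamond-Blackfan anaemia. The 10 mouse genes listed for it include Rps19, the most often mutated. Their median log2 ratio was 0.05, with 7 above 0 (3 with upper-quartile scaling). Past 1.5-fold were 0 of them (all tested genes: 19.4% higher and 16.1% lower). Rps19 was at 335 and 377 RPKM, a fold of 1.13 (1.04 to 1.22).

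Some ribosomal proteins have copies used mainly in testis or muscle. Rpl3l, Rpl10l and Rpl39l were listed in neither library. Rps4l, listed under an older symbol, was at 11.6 and 11.8 RPKM (58 and 60 reads), while its main form Rps4x was at 615 and 702 RPKM.

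A list of 6 ribosomal proteins that the symbol rule left out had a median log2 ratio of 0.20, and 5 of them were within 1.5-fold. Rps3a1 and Rps4l, also outside the rule, are not in that list and had log2 ratios of -0.21 and 0.03. Fau, which makes Rps30 as a fusion, was at 326 and 438 RPKM, a fold of 1.34 (1.2 to 1.45), and Rack1, a signalling scaffold on the small subunit, was at 323 and 383 RPKM. Rpl22l1, a copy of Rpl22, was at 20.4 RPKM (52 reads) and 8.56 RPKM (22 reads), 2.39-fold lower (1.42 to 4.13). In mouse cells the protein Rpl22 is known to hold down the mRNA of Rpl22l1.

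The genes of the mitochondrial ribosome, which translates the few proteins encoded in that organelle, served as a comparison. The 76 tested had a median log2 ratio of 0.14, with 47 above 0, and 19 were at least 1.5-fold higher, against 11 that were at least 1.5-fold lower (all tested genes: 19.4% and 16.1%, so these shares lie near the background). Their SD was 0.67, and their median level was 14 RPKM in the control, far under the 361 RPKM of the cytosolic genes, so counting error alone is wider for them.

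Other mRNAs that open with a TOP tract did not share one direction. Of 16 such translation genes, 6 were above 0, and the median was -0.03. Eif3f, a subunit of initiation factor eIF3, was at 136 and 215 RPKM, a fold of 1.58 (1.46 to 1.70). Eef1g, a subunit of the elongation factor that loads tRNA, was at 267 and 160 RPKM, 1.67-fold lower (1.56 to 1.79). Tpt1, a classical TOP mRNA, was at 1108 and 1080 RPKM, a fold of 0.975 (0.939 to 1.01). Eef1a1 was the most abundant of the list, at 2709 and 2929 RPKM.

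Noncoding TOP RNAs that host small nucleolar RNAs (snoRNAs) in their introns varied more. Of 8, 2 were at least 1.5-fold higher, against 4 that were at least 1.5-fold lower (all tested genes: 19.4% and 16.1%). Some had few reads, such as Snhg6 with 15 and 21, so counting error is wide for them. Snhg12 was at 25.7 RPKM (83 reads) and 6.43 RPKM (21 reads), 3.99-fold lower (2.45 to 6.78). Gas5 was at 25.5 RPKM (347 reads) and 14.4 RPKM (198 reads), 1.77-fold lower (1.48 to 2.12). Zfas1 was at 11.4 RPKM (46 reads) and 27.8 RPKM (113 reads), a fold of 2.43 (1.71 to 3.51).

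Genes that build ribosomes passed the size rule about as often as other genes. Of 27, 5 were at least 1.5-fold higher and 3 lower, near the shares over all tested genes (19.4% and 16.1%), with a median of 0.07. Nhp2 and Gar1, partners in the particles that modify rRNA with pseudouridine, had folds of 3.005 (2.23 to 4.10) and 2.59 (1.47 to 4.73). Dkc1 and Nop10 of the same particles were at folds of 0.758 (0.579 to 0.989) and 0.870 (0.665 to 1.14). Myc, a transcription factor that drives ribosome production, was at 21.4 RPKM (274 reads) and 7.12 RPKM (92 reads), 3.01-fold lower (2.37 to 3.85). Rrn3, which brings RNA polymerase I to rDNA, was at 10.0 and 16.3 RPKM, a fold of 1.63 (1.36 to 1.96).

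Most initiation factors were within 1.5-fold. Of 22, 16 were above 0 (14 with upper-quartile scaling), with a median of 0.19. At least 1.5-fold higher was 1 and at least 1.5-fold lower was 1 (all tested genes: 19.4% and 16.1%). The 1 higher was Eif5, at 74.0 and 113 RPKM, a fold of 1.53 (1.43 to 1.63). The factors Eif3e, Eif3f, Eif3h and Eif4b were in the list of TOP translation genes above and not among the 22. Of these, only Eif3f passed 1.5-fold. The 1 lower among the 22 was Eif4a2, a helicase, at 155 and 81.4 RPKM, 1.91-fold lower (1.79 to 2.04). Its close relative Eif4a1 was at 227 and 234 RPKM.

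The 12 genes of mTORC1 and its link to TOP mRNAs had a median of 0.15. Of them, 3 were at least 1.5-fold higher, against 2 that were at least 1.5-fold lower (all tested genes: 19.4% and 16.1%). Eif4ebp1, which blocks the cap-binding factor when mTORC1 is off, was at 4.20 RPKM (22 reads) and 22.3 RPKM (118 reads), a fold of 5.31 (3.35 to 8.80). Larp1 was at 38.4 and 42.7 RPKM, a fold of 1.11 (1.03 to 1.20), and Mtor at 7.51 and 8.47 RPKM, a fold of 1.13 (0.974 to 1.31). Activity of the pathway was not measured here, only mRNA.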

How the data were processed

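RNA of sorted lung cells was sequenced in 2 libraries. DNase treatment, oligo(dT) selection, fragmentation, random-hexamer cDNA synthesis and PCR preceded sequencing, per the labels' protocols. Trimmomatic and mm10 are named in the submitters' processing notes, while aligner, counting tool, annotation, strand setting and read length were not given in the sources used here. Each group is 1 library. The authors deposited 1 RPKM value per gene and library, per the file headers. RPKM divides by the library total, so a fall of a very abundant gene such as Sftpc raises the values of the rest.

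A gene was tested if either library had it at 1 RPKM or above, with a pseudocount of 1 RPKM and a size rule of 1.5-fold, since 1 library per group allows no test. The log2 scale with a pseudocount understates the change of low genes. A gene with no row counted as 0. Whole reads were recovered from the decimals of RPKM for 98.8% of 15113 genes (all 77 members), with library totals and gene lengths as unknowns, GENCODE M21 transcript lengths as anchors and the descending row order to settle multiples. These read numbers and totals are estimates made here, not values of the authors. Recovered reads were 74.9% and 79.5% of the totals, with Sftpc and 187 other genes not settled. No count model was run, since 1 library per group leaves no residual degrees of freedom. The recovery was tested on simulated data. Symbols were matched by GeneID to RefSeq for 15080 genes. Python 3.11.15, pandas 2.3.3 and scipy 1.17.1 were used.

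Members, groups and gene lists were chosen with earlier results of these data known. Members, listed translation genes and the sort genes could be named. A few genes are not reported singly here, and 2 of them were left out of the plot of ratios by gene. Ndufa7, Kank3 and Rps3a1 were named after their values were seen. Alternatives were 4 other scalings, pseudocounts of 0.1 and 5, no filter or one at 5 RPKM, 2-fold and 25% rules, recovered reads, and leaving out copies or members with shared sequence. The classes of abundant genes by the mean or by both libraries, and the counts of intervals and of genes above 0 with upper-quartile scaling, were added after seeing the data.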

Additional observations from a re-analysis of the deposited data

How the results depend on the processing

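No paired analysis was possible because each group held 1 library, and for the same reason no replicate could be left out. The count of members at least 1.5-fold lower was 0 under each alternative run, and the small-subunit median stayed above 0 under each. Scaling to the upper quartile turned the median log2 ratio to -0.0027 for all members, -0.0050 for the large subunit and -0.023 for all tested genes, with 38 members above 0. Scaling to the sum without Sftpc gave medians of 0.021 for all members, 0.018 for the large subunit and -0.0014 for all tested genes, and centring on the median of all tested genes gave 0.028 for all members. With trimmed-mean scaling the members' median was 0.039, with 46 above 0. These 4 scalings moved 12 to 20 members across 0. A 2-fold rule left 0 members higher and a 25% rule 13. Without the 51 members that share over 50% of their 50-base stretches, chosen after seeing the data, 21 of 26 members were above 0 and 2 were at least 1.5-fold higher. A pseudocount of 5 or a filter at 5 RPKM left 3 higher. Over all alternatives the log2 ratio was 0.83 to 0.92 for Rps28, 0.65 to 0.76 for Rpl37, 0.63 to 0.74 for Rps27l and 0.42 to 1.05 for Rps27. Rps27 has 7 and 15 reads, and the pseudocount moves its value most among the alternatives. The cause of the shifts beyond the scaling factors themselves (1.03 for the trimmed mean, 1.06 for the upper quartile, 1.05 without Sftpc) was not tested.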
